A study of Mus musculus with 11 samples.

Results

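The Cyp2c genes encode a family of cytochrome P450 enzymes, and the 10 members followed here (Cyp2c29, Cyp2c37, Cyp2c38, Cyp2c40, Cyp2c50, Cyp2c54, Cyp2c67, Cyp2c68, Cyp2c69 and Cyp2c70) were taken by gene symbol from the 31053 genes in the tables. Their transcripts were counted in 11 cryosections of mouse liver on 10x Visium slides, which capture polyadenylated RNA on barcoded spots and count it as unique molecular identifiers (UMIs). Of the sections, 3 were uninjured (0 h) and 8 came after acetaminophen (APAP) overdose, of which 2 were taken at 24 h, another 2 at 36 h and 4 at 48 h. The overdose is written POD in the labels, and no allele or second agent is named. The methods of the study give male C57BL/6JCrl mice fasted before intraperitoneal APAP, with a single animal behind each time point of the spatial assay. The n below therefore counts sections, the p-values cover only the spread between sections, and a difference between time points cannot be told apart from a difference between single mice. The labels do not give the mouse, slide or sequencing run of a section.

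P450 enzymes of this family sit in the endoplasmic reticulum of hepatocytes, take electrons from the reductase Por, and oxidise drugs, fatty acids and bile acids. In the liver lobule, blood runs from the portal vein to the central vein, and drug-metabolising P450 enzymes are typically richest in hepatocytes near the central vein, where APAP injury also begins. Cyp2c29 and Cyp2c38 form epoxides of arachidonic acid, Cyp2c37, Cyp2c50 and Cyp2c54 oxidise arachidonic and linoleic acid, Cyp2c40 hydroxylates arachidonic acid, and Cyp2c70 makes the muricholic acids, the 6-hydroxylated bile acids of mice. Less is known of the substrates of Cyp2c67, Cyp2c68 and Cyp2c69.

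The 10 genes lie together on chromosome 19 (GRCm38), between positions 39269405 and 40187333, a span of 918 kb that holds 11 protein-coding genes, the remaining one being Cyp2c39. Along the chromosome they run from Cyp2c29 (ENSMUSG00000003053, 39269405 to 39330713, plus strand) through Cyp2c38, Cyp2c67, Cyp2c68 (ENSMUSG00000074882, 39688834 to 39741054, minus strand), Cyp2c40 (ENSMUSG00000025004, 39767071 to 39812814, minus strand), Cyp2c69 (ENSMUSG00000092008, 39842814 to 39886799, minus strand), Cyp2c37, Cyp2c54 and Cyp2c50 to Cyp2c70 (ENSMUSG00000060613, 40153353 to 40187333, minus strand). The Cyp2c40 group thus lies side by side. Each member has 9 exons. Several members are near copies of each other. Within their coding sequences Cyp2c40 shared 98.1% of bases with Cyp2c68, 97.9% with Cyp2c69 and 97.7% with Cyp2c67, and Cyp2c50 shared 96.1% with Cyp2c37 and 95.2% with Cyp2c54. Cyp2c29 and Cyp2c38 shared 89.1%, while Cyp2c70 shared 67.9% to 70.5% with the other members. The assay reads the 3′ end, and in the last 400 bases of each transcript 60.1% of the 60-base windows of Cyp2c40 also occurred in another member, against 44.3% for Cyp2c68, 37.5% for Cyp2c69 and 29.0% for Cyp2c67. For Cyp2c50, Cyp2c37 and Cyp2c54 the shares were 17.9%, 12.3% and 5.57%. No such window of Cyp2c29, Cyp2c38 or Cyp2c70 was shared. How reads that fit several members were treated could not be seen in the counts, so the values of the members with shared ends are uncertain.

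Promoters of 9 members were in RefSeq's table for GRCm38.p6, each with 250 bases before and 50 after the RefSeq start of the gene. That start is not always the one in the GRCm38 annotation used for the positions above: the window of Cyp2c29 (39286835 to 39287134) lies inside the annotated gene, and those of other members, Cyp2c68 and Cyp2c70 among them, are offset by fewer bases. Cyp2c54 had no entry. The letters CAAAGTCCA, which match the recognition element of the hepatocyte factor HNF4A, were found on either strand in 5 of the 9 (Cyp2c40, Cyp2c67, Cyp2c68, Cyp2c69 and Cyp2c70) and in 0.475% of all 32851 windows in the table. Over aligned bases the promoter of Cyp2c67 was 93.2% identical to that of Cyp2c40, and those of Cyp2c68 and Cyp2c69 were near copies too. The matches in these near copies are not separate occurrences, so the 2 shares are not like for like. The TATA box letters TATAAA, a motif searched for separately on either strand, were in 6 of the 9 (Cyp2c29, Cyp2c38, Cyp2c40, Cyp2c67, Cyp2c69 and Cyp2c70) and in 13.6% of all windows. Both searches describe letters and not bound sites. The promoters of Cyp2c40 and Cyp2c69, the members with the lowest levels at 48 h, are printed with that of Cyp2c68, a near copy with far higher levels after injury, and that of Cyp2c70, with both sets of letters in capitals. Over their aligned bases the promoter of Cyp2c40 was 98.9% identical to that of Cyp2c69 and 94.4% identical to that of Cyp2c68. All 4 lie on the minus strand of chromosome 19, and in the promoter of Cyp2c70 the TATA box letters read on the opposite strand.
Cyp2c40 (chr19:39812765-39813064): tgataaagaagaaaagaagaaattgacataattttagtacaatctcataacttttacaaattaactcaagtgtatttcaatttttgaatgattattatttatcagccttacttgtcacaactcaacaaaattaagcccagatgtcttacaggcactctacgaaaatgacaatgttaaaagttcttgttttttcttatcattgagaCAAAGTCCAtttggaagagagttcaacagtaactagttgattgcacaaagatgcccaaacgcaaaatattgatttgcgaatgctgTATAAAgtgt
Cyp2c69 (chr19:39886720-39887019): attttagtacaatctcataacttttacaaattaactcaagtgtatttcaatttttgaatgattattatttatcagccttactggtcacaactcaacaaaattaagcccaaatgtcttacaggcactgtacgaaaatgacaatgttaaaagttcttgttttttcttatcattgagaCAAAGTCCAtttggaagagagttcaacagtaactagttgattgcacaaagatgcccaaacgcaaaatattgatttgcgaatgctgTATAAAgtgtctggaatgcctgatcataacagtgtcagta
Cyp2c68 (chr19:39741052-39741351): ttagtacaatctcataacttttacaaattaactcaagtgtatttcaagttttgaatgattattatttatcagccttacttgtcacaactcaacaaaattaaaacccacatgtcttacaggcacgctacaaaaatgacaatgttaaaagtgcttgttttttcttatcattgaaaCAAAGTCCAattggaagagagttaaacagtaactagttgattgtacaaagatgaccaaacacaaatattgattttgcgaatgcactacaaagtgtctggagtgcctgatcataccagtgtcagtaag
Cyp2c70 (chr19:40187237-40187536): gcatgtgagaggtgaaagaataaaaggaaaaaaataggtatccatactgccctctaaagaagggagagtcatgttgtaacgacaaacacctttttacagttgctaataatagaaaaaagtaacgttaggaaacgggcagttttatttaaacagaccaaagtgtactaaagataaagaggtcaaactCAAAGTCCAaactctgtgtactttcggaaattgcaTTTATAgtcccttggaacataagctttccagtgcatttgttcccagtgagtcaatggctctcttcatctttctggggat

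After filtering, the sections held 1490 to 3466 spots and 31292663 to 67045372 UMIs. Of all UMIs in the tables, 10.7% to 24.9% per section fell on positions outside the tissue, and 10.1% to 24.2% of the family's own UMIs did. Levels over whole sections are given as CPM, the UMIs per 1000000 of the section's total after TMM scaling, which balances libraries on the genes that differ least. A UMI is counted once per transcript whatever its length, so no length correction was made, but reads lost or shared between near copies would lower or raise Cyp2c40, Cyp2c67, Cyp2c68, Cyp2c69, Cyp2c37, Cyp2c50 and Cyp2c54 against members with unshared ends, and the order of levels between members carries that uncertainty. The labelled tissue, liver, held its 5 hepatocyte markers (Alb, Ttr, Hp, Hnf4a and Apoa1) in every section, and they summed to 107268 to 111967 CPM at 0 h, 82254 to 95332 CPM at 24 h, 81157 to 98470 CPM at 36 h and 72425 to 88786 CPM at 48 h. Markers of several other cells were higher after injury. The 4 myofibroblast markers (Acta2, Col1a1, Col1a2 and Col3a1) summed to 37.5 to 45.9 CPM at 0 h and 483 to 1185 CPM at 48 h, the 4 of mononuclear phagocytes (Lyz2, Csf1r, Cd68 and Cd5l) to 409 to 434 CPM and 722 to 1327 CPM, and the 3 of neutrophils (Cxcr2, S100a8 and S100a9) to 1.96 to 7.66 CPM and 28.7 to 102 CPM. The 7 endothelial markers did not follow them, with 247 to 283 CPM at 0 h, 210 to 228 CPM at 24 h, 202 to 325 CPM at 36 h and 207 to 264 CPM at 48 h. No marker of these lists was at 0 in any section. The part of these shifts in the results below was not tested, and in summed spots fewer hepatocytes and less RNA per hepatocyte cannot be told apart.

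In uninjured liver the 10 members together made up 0.205%, 0.197% and 0.193% of all UMIs in the 3 sections. Cyp2c70 was the most abundant at 641 ± 215 CPM (SD, n = 3), followed by Cyp2c29 at 509 ± 205 and Cyp2c50 at 391 ± 69.2. Cyp2c67 (293 ± 21.3) and Cyp2c68 (284 ± 10.8) came next, then Cyp2c54 (129 ± 36.9), Cyp2c37 (125 ± 34.7) and Cyp2c40 (80.2 ± 27.2), and Cyp2c69 (25.5 ± 10.2) and Cyp2c38 (21.3 ± 8.77) were the lowest. The gap between neighbours in this order was larger than both of their SDs at 4 steps, from Cyp2c50 to Cyp2c67, from Cyp2c68 to Cyp2c54, from Cyp2c37 to Cyp2c40 and from Cyp2c40 to Cyp2c69, and the gap between other neighbours was within at least 1 of their SDs. The uninjured sections differed among themselves for single members even though their family totals were close: Cyp2c29 read 735, 456 and 336 CPM and Cyp2c70 read 461, 583 and 879 CPM in sections 2, 3 and 4, so that the section with the most Cyp2c29 had the least Cyp2c70.

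After APAP the family made up a smaller part of the transcriptome in all 8 injured sections. Its share of UMIs was 0.123% and 0.100% at 24 h, 0.0952% and 0.0715% at 36 h, and 0.0980%, 0.179%, 0.114% and 0.115% at 48 h. No injured section overlapped the uninjured range, and the highest was 48 h section B. Set against other hepatocyte transcripts of the same spots, the family gave 23.2, 22.7 and 22.3 UMIs per 1000 UMIs of the 5 hepatocyte markers at 0 h. The ratio was 14.8 and 10.7 at 24 h, 10.6 and 6.90 at 36 h, and 10.4, 17.7, 13.5 and 13.1 at 48 h. Again the injured sections lay below the uninjured ones, by 0.94 on the log2 scale on average. The marker sum does not stand for its list. By edgeR 1 of the 5 markers was called higher and 3 lower at 24 h and at 48 h. At 36 h 1 was called higher and 1 lower. Hp read 2392 to 3569 CPM at 0 h and 14446 to 21788 CPM at 24 h. It read 8200 to 10445.5 CPM at 36 h and 5066 to 7621 CPM at 48 h. A rise of Hp lowers the ratio and a fall of other markers raises it, and the part of either was not tested. These sums over the members are descriptions and carry no test. In spots thinned to 2000 UMIs, 94.5% to 95.6% of uninjured spots held at least 1 family UMI, against 83.7% and 90.0% at 24 h, 75.5% and 83.3% at 36 h, and 81.6% to 94.0% at 48 h. Without thinning the share was 99.7% to 100% in every section, since spots were read to a median of 15168 to 29950 UMIs.

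**Figure D1:**
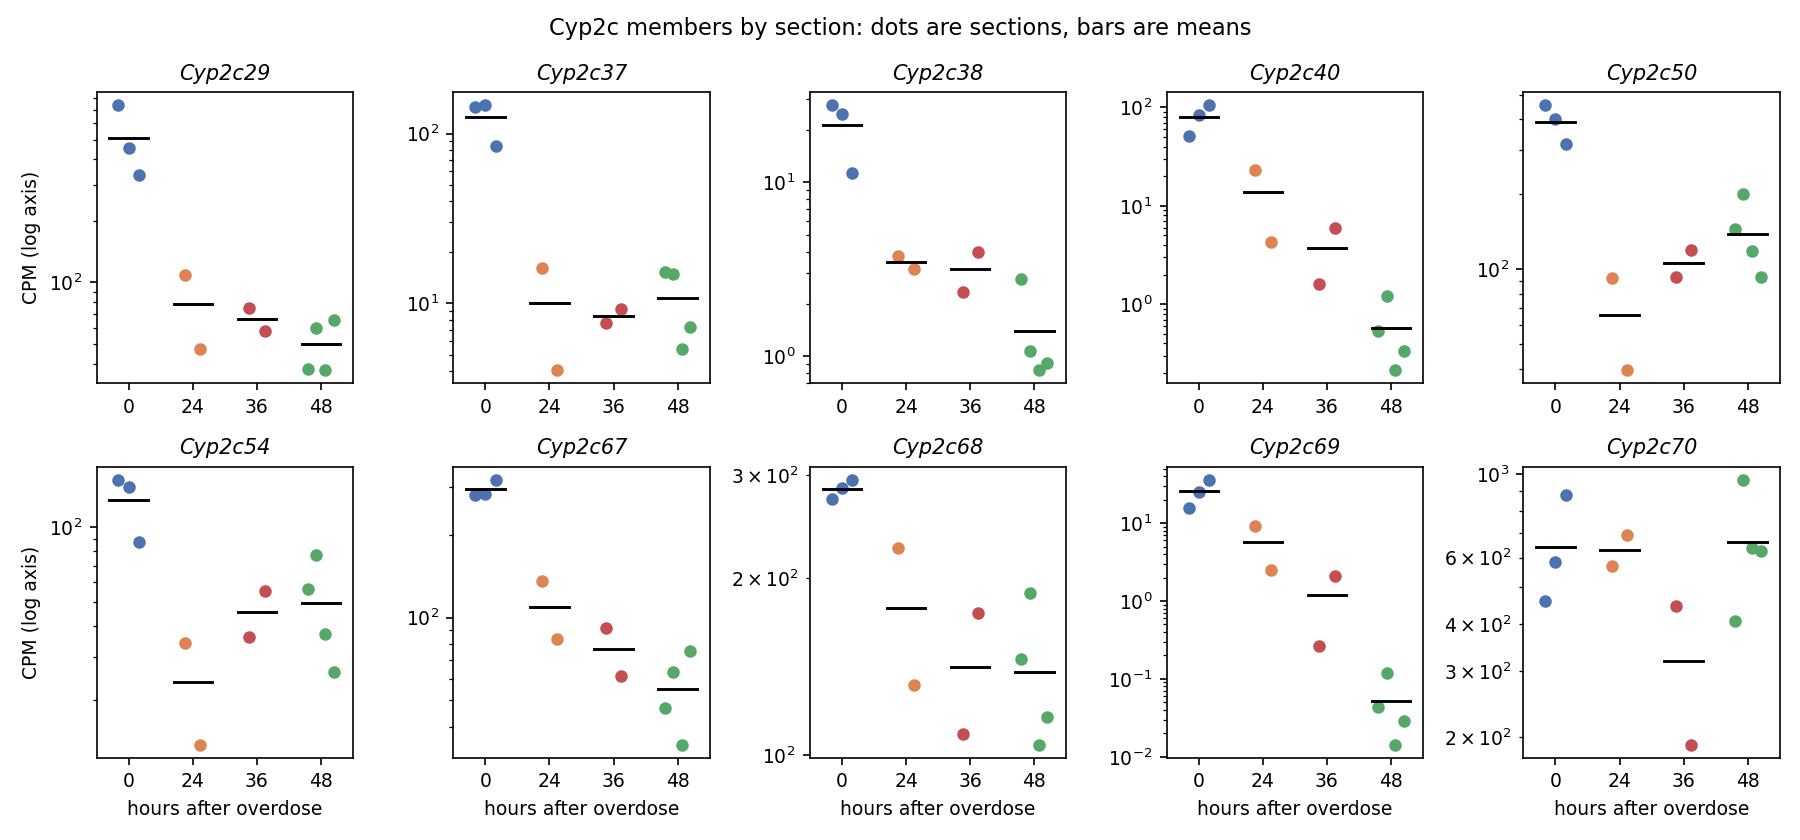
Level of each Cyp2c member in CPM (log axis) against hours after APAP overdose, with a dot for each of the 11 sections and a bar at the mean of the time point. The means of Cyp2c40 and Cyp2c69 step down at each later time point and are the lowest at 48 h, although the 24 h and 36 h sections of Cyp2c40 overlap. Those of Cyp2c29, Cyp2c38, Cyp2c67 and Cyp2c68 step down as well, with Cyp2c68 at 141 CPM at 36 h and 139 CPM at 48 h. Cyp2c70 shows no such step, with means of 641 CPM at 0 h and 660 CPM at 48 h.

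The first comparison asked which members differed from uninjured liver at each time after the overdose. Using edgeR's quasi-likelihood test over all 14821 genes that passed the filter on low counts (adjusted p under 0.05, Benjamini-Hochberg), 8 of the 10 members were lower at 24 h, 8 at 36 h and 9 at 48 h, and none was higher. Of all genes tested, 18.6%, 12.4% and 20.9% were lower in the same comparisons. All 10 members passed the filter. Their median log2 fold change was -2.49, -2.34 and -2.88, beside 0.05, 0.05 and 0.01 over all genes tested. At 24 h the count rested partly on section B, without which 5 members were called, with Cyp2c40, Cyp2c67 and Cyp2c69 no longer among them (adjusted p of at most 0.139, 0.0660 and 0.166 over the sections left out in turn). With any section left out, 7 to 9 members were called at 36 h and 8 to 9 at 48 h. DESeq2 called 8, 10 and 9 at the 3 times.

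Cyp2c29, an arachidonic acid epoxygenase, fell early and stayed low. From 735, 456 and 336 CPM at 0 h it read 109 and 47.1 CPM at 24 h, 75.3 and 57.6 CPM at 36 h, and 37.9, 59.6, 37.3 and 65.6 CPM at 48 h. Every injured section was below every uninjured one. The log2 fold changes were -2.70 (SE 0.46, adjusted p = 0.00129), -2.94 (SE 0.47, adjusted p = 0.00218) and -3.34 (SE 0.36, adjusted p = 0.000102). Its neighbour Cyp2c38, the related epoxygenase, stood at 27.8, 24.8 and 11.3 CPM at 0 h, 3.76 and 3.16 CPM at 24 h, 2.35 and 3.995 CPM at 36 h, and 2.77, 1.07, 0.832 and 0.910 CPM at 48 h. Its log2 fold changes were -2.62, -2.75 and -3.93, with adjusted p of 0.00452, 0.00694 and 0.000144. Both genes kept these calls when any section was left out.

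Cyp2c37, Cyp2c50 and Cyp2c54, the 3 near copies that oxidise arachidonic and linoleic acid, differed in how far below 0 h they stood, a difference between genes that was not tested. Cyp2c37 went from 142, 147 and 84.6 CPM to 16.1 and 4.05 CPM at 24 h, and it read 7.71 and 9.22 CPM at 36 h and 15.2, 14.96, 5.35 and 7.28 CPM at 48 h. In edgeR its 3 log2 fold changes came to -3.61, -3.88 and -3.54 (adjusted p = 0.00213, 0.00349 and 0.000446), the largest fall at 24 h among the members. Cyp2c50 went from 455, 400 and 318 CPM to 92.2 and 39.5 CPM at 24 h, then 93.1 and 119 CPM at 36 h and 145, 199.6, 119 and 92.9 CPM at 48 h. It was lower at all 3 times (log2 fold change -2.57, -1.88 and -1.49, adjusted p = 0.000899, 0.00727 and 0.00329), by a smaller amount at the later ones. Cyp2c54 followed Cyp2c50, with 156, 145 and 87.0 CPM at 0 h, 34.2 and 13.2 CPM at 24 h, 36.0 and 55.1 CPM at 36 h, and 56.1, 77.6, 37.1 and 26.1 CPM at 48 h. Its log2 fold change was -2.44 at 24 h (adjusted p = 0.00596), -1.51 at 36 h, which did not pass (adjusted p = 0.0548), and -1.39 at 48 h (adjusted p = 0.0209). The call of Cyp2c54 at 48 h was lost without uninjured section 2, uninjured section 3 or 48 h section C (largest adjusted p 0.0624), and the one at 36 h was gained in 5 of the 11 fits with a section left out. Per 100 Cyp2c50 UMIs there were 31.3, 36.7 and 26.6 of Cyp2c37 in the uninjured sections and 4.50 to 17.4 after injury, so the uninjured and injured sections did not overlap.

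The 4 genes of the Cyp2c40 group, nearly identical in coding sequence, spread furthest apart. Cyp2c40 read 51.1, 84.6 and 105 CPM at 0 h, 23.2 and 4.31 CPM at 24 h, 1.59 and 5.94 CPM at 36 h, and 0.536, 1.23, 0.215 and 0.332 CPM at 48 h. Cyp2c69 read 15.7, 24.9 and 36.0 CPM at 0 h, 9.05 and 2.49 CPM at 24 h, 0.261 and 2.11 CPM at 36 h, and was close to undetected at 48 h, where the 4 sections held 3, 6, 1 and 2 UMIs. Both genes were lower at each time, with log2 fold changes of -2.53, -4.41 and -7.19 for Cyp2c40 (adjusted p = 0.0271, 0.00658 and 0.000118) and of -2.12, -4.42 and -9.01 for Cyp2c69 (adjusted p = 0.0302, 0.00419 and 5.62e-05). With so few UMIs the fitted size depends on the prior count. Pooled over sections, Cyp2c40 was 149-fold lower at 48 h than at 0 h (95% exact interval 126 to 178, from 136 and 10634 UMIs) and Cyp2c69 was 530-fold lower (303 to 1028, from 12 and 3339 UMIs), where the intervals cover counting error only. The calls at 24 h were lost without 24 h section B for both genes, without uninjured section 4 for both, and without uninjured section 3 for Cyp2c69. They were also lost for both genes with no filter on low counts and with those 2 time points fitted alone, and for Cyp2c69 in DESeq2.

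Cyp2c67 and Cyp2c68, the other near copies, differed less from 0 h. Cyp2c67 read 279, 283 and 317 CPM at 0 h, 136 and 83.6 CPM at 24 h, 92.0 and 61.4 CPM at 36 h, and 46.9, 63.3, 34.6 and 75.5 CPM at 48 h. Its log2 fold changes were -1.42, -1.93 and -2.41 (adjusted p = 0.00649, 0.00313 and 0.000109). Cyp2c68 read 273, 285 and 295 CPM at 0 h, 225 and 131 CPM at 24 h, 108 and 174 CPM at 36 h, and 146, 189, 104 and 116 CPM at 48 h. The injured sections of Cyp2c68 were below the uninjured ones at every time, yet the change at 24 h did not pass (-0.67, SE 0.30, adjusted p = 0.0931), while those at 36 h (-1.01, SE 0.30, adjusted p = 0.0305) and 48 h (-1.04, SE 0.24, adjusted p = 0.00611) did. The 36 h call was lost when any uninjured section or 36 h section A was left out, with a largest adjusted p of 0.158. For every 100 UMIs of Cyp2c68 there were 18.7, 29.6 and 35.7 of Cyp2c40 at 0 h, 10.3 and 3.28 at 24 h, 1.47 and 3.40 at 36 h, and 0.207 to 0.650 at 48 h. The same ratio for Cyp2c69 went from 5.73, 8.73 and 12.2 to between 0.0138 and 0.0639. At 48 h, then, very few UMIs were assigned to Cyp2c40 or Cyp2c69 beside the 34742 UMIs of Cyp2c68, although the transcript ends overlap in sequence.

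Cyp2c70, the muricholic acid enzyme, was the one member that edgeR called at no time, although DESeq2 called it lower at 36 h (-1.02, adjusted p = 0.0346). It read 461, 583 and 879 CPM at 0 h, 570 and 691 CPM at 24 h, 447 and 191 CPM at 36 h, and 408, 967, 637 and 626 CPM at 48 h. The groups overlapped at 24 h and 48 h, and both 36 h sections lay below the uninjured ones. The log2 fold changes were -0.02 (SE 0.41, adjusted p = 0.968), -1.01 (SE 0.43, adjusted p = 0.0997) and 0.04 (SE 0.35, adjusted p = 0.933). A p that misses the threshold at this spread does not show that Cyp2c70 was constant. Without 36 h section A the 36 h difference passed (adjusted p = 0.0285).

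**Figure D2:**
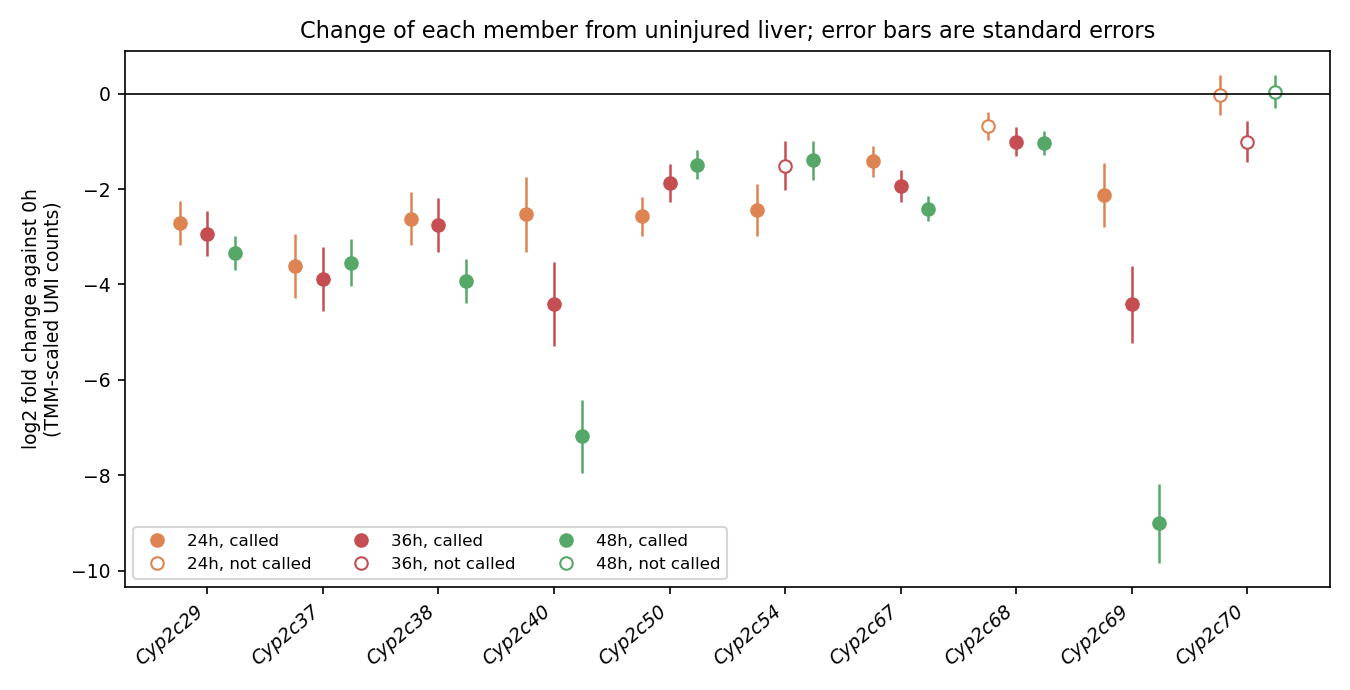
Log2 fold change of each member against 0 h at 24 h, 36 h and 48 h, from edgeR on TMM-scaled UMI counts, with standard errors as bars and filled dots for adjusted p under 0.05. Cyp2c69 and Cyp2c40 reach -9.01 and -7.19 at 48 h, Cyp2c50 and Cyp2c54 have their lowest values at 24 h (-2.57 and -2.44), and Cyp2c70 has open dots at all 3 times.

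Scaling bore on the smaller of these changes. TMM factors ran from 0.783 to 0.811 at 0 h and from 1.14 to 1.17 at 48 h, and when libraries were scaled to their total counts alone the median log2 fold change of all genes was 0.37, 0.49 and 0.54 at 24 h, 36 h and 48 h, and the share of called genes that were higher went from 55.4%, 57.5% and 52.7% to 80.4%, 94.1% and 93.7%. Under that scaling 8, 7 and 7 members were called lower. Cyp2c68 then stood at -0.58 at 36 h and -0.51 at 48 h and Cyp2c54 at -0.87 at 48 h, none of which passed (adjusted p = 0.119, 0.0817 and 0.0894). Cyp2c70 turned to 0.57 at 48 h and again did not pass (adjusted p = 0.176).

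Comparing the injured time points with each other asked whether the members came back or went on falling. Between 24 h and 36 h no member passed in edgeR, against 15.6% of all genes. At an unadjusted p under 0.05 there was 1 (Cyp2c69), and DESeq2 called 0. Between 36 h and 48 h edgeR again called 0, against 3.05% of all genes, with 4 at an unadjusted p under 0.05 (Cyp2c38, Cyp2c40, Cyp2c69 and Cyp2c70) and 2 by DESeq2 (Cyp2c40 and Cyp2c69). From 24 h to 48 h 4 members differed, against 34.1% of all genes. Cyp2c40 (log2 fold change -4.66, SE 0.76, adjusted p = 0.00208), Cyp2c69 (-6.89, SE 0.88, adjusted p = 0.000749) and Cyp2c67 (-0.99, SE 0.29, adjusted p = 0.0240) were lower at 48 h, and Cyp2c50 was higher (1.08, SE 0.37, adjusted p = 0.0454). The rise of Cyp2c50 was lost in 6 of the 11 fits with a section left out (largest adjusted p 0.275), and the fall of Cyp2c67 without 24 h section A or 48 h section A (largest adjusted p 0.253). Under total-count scaling the call of Cyp2c67 was lost, and with no filter on low counts that of Cyp2c50. Both were lost when the 2 time points were fitted alone, and when the injured sections were, with or without the section letter as a block. Cyp2c54, a near copy of Cyp2c50, was 1.05 higher with an SE of 0.50 and did not pass (adjusted p = 0.129). The calls of Cyp2c40 and Cyp2c69 held without any single section.

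The make-up of the family changed accordingly. Cyp2c70 supplied 17.8%, 24.0% and 35.6% of the family's UMIs at 0 h, 46.8% and 67.7% at 24 h, 51.7% and 28.1% at 36 h, and 47.6%, 61.4%, 65.3% and 61.9% at 48 h. Its mean share was 25.8% ± 9.05 (SD, n = 3) at 0 h and 53.8% ± 13.1 (SD, n = 8) after injury, and 36 h section B was the one injured section within the uninjured range. Cyp2c29 went the other way, from 28.3%, 18.7% and 13.6% at 0 h to between 3.79% and 8.95% in the injured sections, with no overlap. Cyp2c68 held 11.4% ± 0.768 at 0 h and 15.1% ± 5.07 after injury, and Cyp2c50 held 15.6% ± 2.44 and 11.3% ± 4.58, with overlap for both. A share of the family rises when other members fall, so the share of Cyp2c70 says nothing of its own level. The shares were described and not tested.

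**Figure D3:**
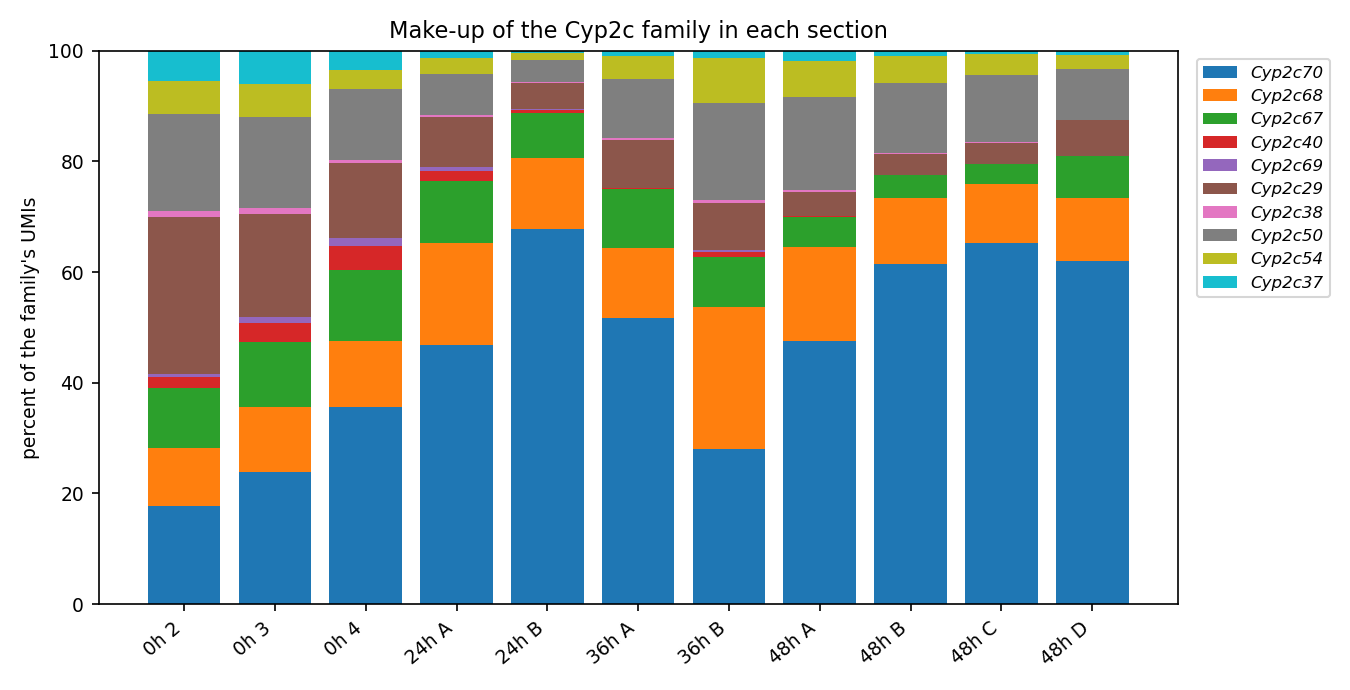
Make-up of the family in each of the 11 sections, as stacked percentages of the UMIs of the 10 members. The segment of Cyp2c70 widens from 17.8% to 35.6% in the uninjured sections to 28.1% to 67.7% in the injured ones, and the segment of Cyp2c29 shrinks to between 3.79% and 8.95%.

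The second question was where in the lobule the members were expressed. Spots of each section were ranked by a central score minus a portal score and cut into 4 bins of equal size. The top and bottom bins were compared as central-side and portal-side spots. The scores used the zonation lists of the study, drawn by the study on these sections, with Cyp2c genes left out (21 central and 12 portal genes used). In injured sections the bin is a rank within the section and need not be the same anatomical zone. Levels by bin are UMIs per 1000000 UMIs of that bin, written as unscaled CPM. Other cells were also unevenly spread. The hepatocyte markers summed to 71551 to 73743 unscaled CPM in the central bin and 95921 to 98459 in the portal bin at 0 h. The 4 cholangiocyte markers (Epcam, Cdh1, Krt8 and Krt19) summed to 1223 to 1451 central and 697 to 743 portal at 24 h. By edgeR 1 of these 4 was called higher on the central side at 24 h, 1 lower and 2 neither. Their median log2 difference was -0.69, so the sum does not stand for the list. The 4 myofibroblast markers gave 580 to 1324 central and 324 to 1042 portal at 48 h. The part of these differences in the zonal values was not tested.

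In uninjured liver each of the 10 members was higher on the central side, in 3 of 3 sections, and each passed edgeR's test with the section as a block, against 8.63% of the 13488 genes tested that were higher on the central side. The difference was largest for Cyp2c69 (log2 difference 2.56, SE 0.09, adjusted p = 8.88e-19) and Cyp2c40 (2.48, SE 0.06, adjusted p = 2.67e-29). Cyp2c69 read 4.86, 6.95 and 9.09 unscaled CPM in the portal bins and 25.0, 43.8 and 61.3 in the central ones. Cyp2c37 (2.35), Cyp2c38 (2.18) and Cyp2c29 (2.10) followed. Cyp2c50 (1.65), Cyp2c54 (1.61), Cyp2c67 (1.51) and Cyp2c68 (1.08) were less steep. Cyp2c70 had the shallowest gradient (0.47, SE 0.06, adjusted p = 2.41e-06), with 294, 384 and 562 unscaled CPM in the portal bins and 423, 557 and 805 in the central ones. Across the 4 bins from portal to central, Cyp2c29 averaged 165, 275, 449 and 715 unscaled CPM and Cyp2c70 413, 483, 549 and 595. These calls held without any single section.

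**Figure D4:**
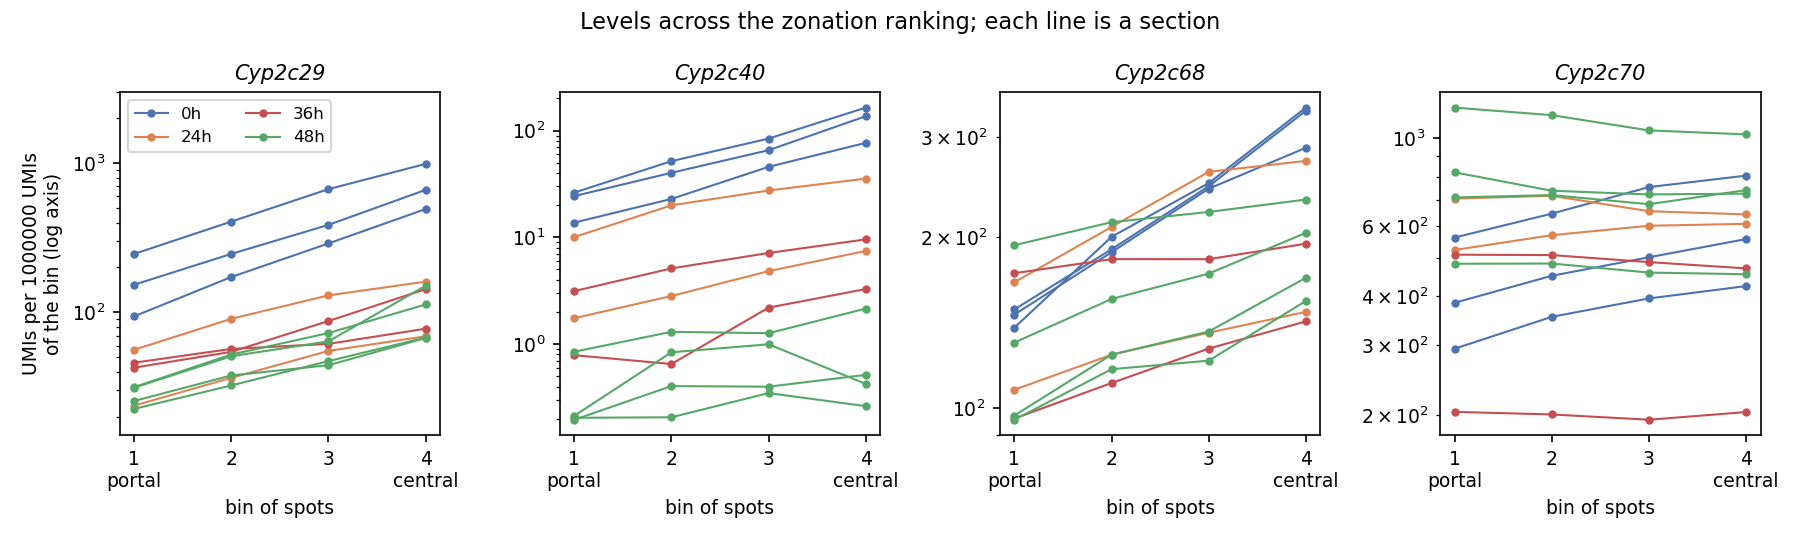
Level in UMIs per 1000000 UMIs of the bin (log axis) of Cyp2c29, Cyp2c40, Cyp2c68 and Cyp2c70 in the 4 bins of spots from portal to central, 1 line per section, coloured by time point. The panels have their own vertical ranges. Cyp2c29 slopes up towards the central side at each time, at a lower level after injury, and the lines of Cyp2c70 slope up at 0 h, from 413 to 595 on average, and run nearly flat or slightly down at 48 h, from 802 to 736.

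After injury the gradient of the summed family was shallower. Its central bin held 2.77, 2.73 and 2.64 times the level of its portal bin at 0 h, 1.63 and 1.14 times at 24 h, 1.36 and 1.21 times at 36 h, and 1.39, 1.11, 1.13 and 1.47 times at 48 h, with no overlap between injured and uninjured sections. At 24 h 7 members were higher on the central side, against 9.14% of genes. Cyp2c38 (1.81), Cyp2c40 (1.64), Cyp2c69 (1.499), Cyp2c29 (1.30), Cyp2c37 (1.27), Cyp2c50 (1.06) and Cyp2c67 (1.04) passed, and Cyp2c54 (0.94), Cyp2c68 (0.37) and Cyp2c70 (-0.19) did not (adjusted p = 0.126, 0.173 and 0.0879). Scaled to total counts, Cyp2c54 (1.16) and Cyp2c68 (0.60) passed too and Cyp2c70 stood at 0.04, where the median of all genes was 0.22. Without 24 h section A 2 members passed, 1 of them higher on the portal side, and without 24 h section B 4 did. At 36 h 3 members were higher on the central side, against 3.28% of genes, namely Cyp2c40 (1.55), Cyp2c38 (1.41) and Cyp2c29 (1.11). That count was 2 without uninjured section 3 or 4, and 4 without 48 h section D. In the latter fit Cyp2c70 was called too, as higher on the portal side. The call of Cyp2c29 was lost in 9 of the 11 fits with a section left out. Cyp2c70 stood at -0.22 (adjusted p = 0.0840), with neither section higher on the central side.

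At 48 h members were called in both directions. On the central side 8 were higher, against 12.4% of genes, led by Cyp2c29 (1.64, SE 0.18, adjusted p = 0.000338), Cyp2c37 (1.63) and Cyp2c38 (1.37), with Cyp2c40 (0.96), Cyp2c50 (0.92), Cyp2c54 (0.91), Cyp2c67 (0.82) and Cyp2c68 (0.42) below them. Cyp2c70 was higher on the portal side (-0.28, SE 0.05, adjusted p = 0.000207), as were 15.1% of genes. So were 4 of the 5 hepatocyte markers, whose median log2 difference was also -0.28, so this direction was not particular to Cyp2c70. The central bin of Cyp2c70 held 454, 1023, 725 and 740 unscaled CPM and its portal bin 482, 1196, 821 and 709. Thus 3 of 4 sections were higher on the portal side and section D was not. That call was lost without 48 h section A (adjusted p = 0.0709), and it also failed once libraries were scaled by total counts (-0.11, adjusted p = 0.0656), where the median of all genes stood at 0.18. The calls of Cyp2c40 and Cyp2c68 were each lost in 3 such fits, for Cyp2c40 without 48 h section A, B or D and for Cyp2c68 without 48 h section A, C or D (largest adjusted p 0.343 and 0.0903). Ranked by textbook zonation genes in place of the lists of the study, 4 members were higher on the central side at 48 h (Cyp2c29, Cyp2c37, Cyp2c38 and Cyp2c67) and 2 on the portal side, Cyp2c70 (-0.71) and Cyp2c68, which turned to -0.14 (adjusted p = 0.00451). Cyp2c40 (-0.26) and Cyp2c54 (-0.011) then also turned sign, and Cyp2c50 (0.097) was not called. The 12 UMIs of Cyp2c69 at 48 h were spread as 0, 1, 5 and 6 over the bins from portal to central, too few for a fold.

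The direct test of the change in gradient gave 3 members at 24 h (against 13.9% of genes), 4 at 36 h (9.47%) and 4 at 48 h (18.2%), each with a smaller central-portal difference than at 0 h. Of the 21 central genes of the study's list, 13, 16 and 19 were called with a smaller difference too. Of the 10 central textbook genes, which did not enter this ranking, 7, 9 and 10 were. Their median changes were -1.52, -1.33 and -1.35, beside -0.69, -0.99 and -0.71 over the members. A smaller difference was thus not particular to the family. Cyp2c70 was called at every time, with changes of -0.66 (SE 0.10, adjusted p = 3.69e-05), -0.69 (SE 0.10, adjusted p = 4.10e-05) and -0.75 (SE 0.08, adjusted p = 2.02e-07), and it was called in each fit with a section left out and in each of the 6 other settings. Cyp2c40 was also called at each time (-0.84, -0.93 and -1.52, with adjusted p of 0.000258, 0.0378 and 0.00852), Cyp2c69 at 24 h (-1.07, adjusted p = 0.00929), and Cyp2c67 and Cyp2c68 at 36 h (-0.98 and -0.89, adjusted p = 0.0456 and 0.0393) and 48 h (-0.68 and -0.66, adjusted p = 0.0422 and 0.0294). The 36 h call of Cyp2c40 was lost in 5 of 11 fits with a section left out and in 4 of the 6 other settings (textbook zonation genes, total-count scaling, no filter on low counts and DESeq2), and those of Cyp2c67 and Cyp2c68 in 8 and 9 of 11 such fits. The 48 h calls of Cyp2c67 and Cyp2c68 were lost in 8 and 3 of 11. Cyp2c40 lost its 24 h call without 24 h section A, and its 48 h call without 48 h section B (edgeR adjusted p = 0.0607). At 48 h the portal bins held 3, 9, 3 and 3 UMIs of Cyp2c40 and the central bins 7, 24, 4 and 8. The size of its change at 48 h is therefore uncertain. Under total-count scaling Cyp2c67 lost both of its calls, and in DESeq2 Cyp2c69 lost its call at 24 h. The counts moved with single sections. At 24 h 2 members remained called without 24 h section A or B. At 36 h 1 was called without uninjured section 3, uninjured section 4 or 36 h section B, 2 without uninjured section 2, 24 h section A, 24 h section B, 36 h section A, 48 h section A or 48 h section C, and 7 without 48 h section D. At 48 h 2 were called without uninjured section 3, uninjured section 4, 48 h section A or 48 h section B, and 7 without 48 h section D. With textbook zonation genes in place of the lists of the study, 7, 7 and 9 members were called, again each with a smaller difference than at 0 h.

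**Figure D5:**
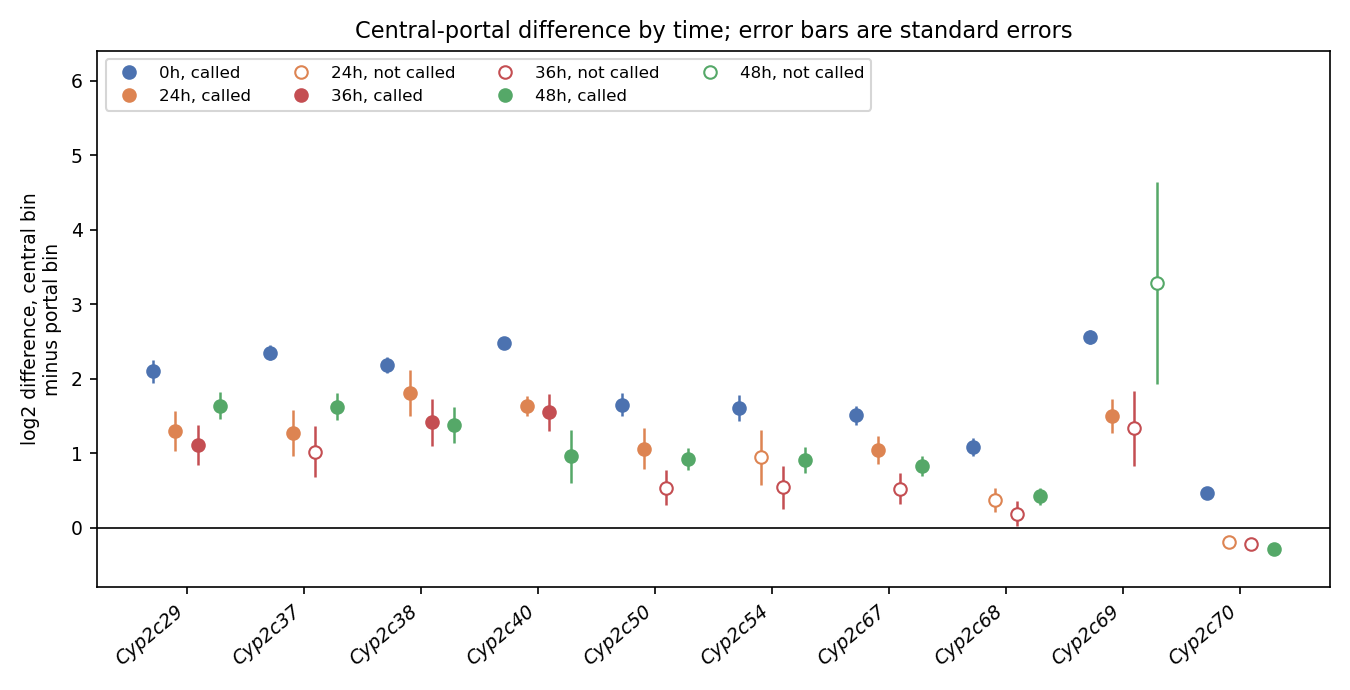
Log2 difference between central-side and portal-side spots for each member at 0 h, 24 h, 36 h and 48 h, with standard errors as bars and filled dots for an adjusted p under 0.05 in edgeR. The 10 values at 0 h lie between 0.47 and 2.56, and Cyp2c70 is the member whose 48 h value is called below 0 (-0.28). The 48 h value of Cyp2c69 rests on 12 UMIs and is not a measured fold.

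A further comparison set spots touching hepatocyte-low spots against spots at least 3 steps away. Hepatocyte-low spots, those below the 1st percentile of the uninjured hepatocyte score, numbered 22, 44 and 15 in the uninjured sections and 0 to 36 in the injured ones, so they were not more frequent after injury and are not a map of necrosis. Injured sections with at least 20 spots in both classes were 48 h A and 48 h C. In these, 4 of the 9 members tested were lower beside hepatocyte-low spots, against 13.3% of genes: Cyp2c70 (log2 difference -1.07, SE 0.09, adjusted p = 7.44e-32), Cyp2c54 (-0.56, adjusted p = 3.81e-05), Cyp2c68 (-0.38, adjusted p = 0.000336) and Cyp2c50 (-0.36, adjusted p = 0.000710). Cyp2c69 was filtered out for low counts. With only 2 sections in the fit, these p-values lean on a spread estimated from all genes together. Cyp2c70 read 479 unscaled CPM far away, 270 in the adjoining spots and 145 in the low spots of section A, and 775, 449 and 166 in section C. Cyp2c29 read 43.2 far away, 43.7 in the adjoining spots and 12.8 in the low spots of section A. In section C it read 44.7, 42.6 and 12.8. The low-spot values of Cyp2c29 rest on 6 and 11 UMIs. Each of the 5 hepatocyte markers was lower in the adjoining spots, with Alb at -0.79. The same 5 genes made the score that picked the low spots, so their lower level next to those spots is not a separate result. Each of the 4 myofibroblast and 4 mononuclear phagocyte markers was higher in the adjoining spots. Under total-count scaling 1 member, Cyp2c70, was called (-0.80, adjusted p = 4.69e-20). With 1 section left there is no spread between sections, so no value could be given without 48 h section A or C.

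Genes that work with the family were followed from fixed lists. Of the 5 other Cyp2c genes in the tables, 3 were tested, and Cyp2c23, an epoxygenase outside the cluster, was lower at 24 h, 36 h and 48 h (log2 fold change -1.59, -1.16 and -1.61, adjusted p = 0.00245, 0.0175 and 0.000534). Cyp2c55 was lower at 24 h and 36 h (-2.96 and -2.46, adjusted p = 0.0125 and 0.0351). Cyp2c39, the remaining gene of the cluster, had 41 UMIs at 0 h and was not called, Cyp2c65 had 1 UMI at 0 h and Cyp2c66 had 0 in all sections. Among the 4 redox partners, Por, which passes electrons to P450 enzymes, was not called at 24 h (0.30, adjusted p = 0.539) and was higher at 36 h (2.10, adjusted p = 0.00294) and 48 h (1.201, adjusted p = 0.0111), with 68.8 to 95.02 CPM at 0 h, 212 and 519 CPM at 36 h and 148 to 250.0 CPM at 48 h. Cyb5b and Cyb5r3, the cytochrome b5 of the outer mitochondrial membrane and the reductase of cytochrome b5, were lower at all 3 times, by 1.36 and 0.85 on the log2 scale at 24 h. Over the list, 0, 1 and 1 of 4 were higher and 3, 2 and 2 lower, with medians of -0.88, -0.54 and -0.47.

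Of the 12 listed transcription factors that are known to act on these genes or on hepatocytes, 0, 1 and 1 were higher and 3, 3 and 6 lower at 24 h, 36 h and 48 h, with medians of -0.12, -0.17 and -0.47. Nr1i3, the xenobiotic receptor CAR, was the one that was higher (0.71 at 36 h, adjusted p = 0.0231, and 0.48 at 48 h, adjusted p = 0.0418). Hnf4a, whose recognition letters stand in 5 of the promoters, was not called at any time (-0.10, 0.13 and -0.28, adjusted p = 0.653, 0.552 and 0.109). The glucocorticoid receptor Nr3c1 and Stat5b, which carries growth hormone signals, were lower at all 3 times, by 0.95 and 0.90 at 24 h. All 4 genes of epoxide handling (Ephx1, Ephx2, Cyp2j5 and Cyp2j6) were lower at 48 h, and 3 of them at 24 h and 36 h, with medians of -1.22, -0.86 and -1.02. Ephx2, the soluble hydrolase that opens fatty acid epoxides, fell by 1.91, 1.03 and 1.33 on the log2 scale. Of the 8 genes of bile acid synthesis and its control, 5 were lower at each time (Cyp27a1, Cyp7b1, Cyp8b1, Baat and Slc27a5), while Cyp7a1, Nr1h4 and Nr0b2 were not called. Cyp8b1, the sterol hydroxylase of cholic acid synthesis, fell by 2.18, 2.05 and 2.69, beside values of Cyp2c70, which acts on the other main bile acid branch, that edgeR did not call.

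By similarity over the 11 sections (Pearson r of log2 CPM, 7085 genes with a mean of at least 10 CPM), the genes most like the summed family were Mrpl36 (r = 0.965), Uqcrb (0.964), Mettl23 (0.958), Immp1l (0.956) and Mrpl34 (0.956). Those most like Cyp2c70 were Arl8b (0.875), Ncbp2 (0.860), Zfp422 (0.855), Mrps6 (0.854) and Med21 (0.849). The 11 points share time points, mice and scaling, so these values only describe which genes had a like pattern.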

How the data were processed

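Spatial transcriptomes of 11 mouse liver sections were analysed. The authors deposited raw UMI counts per gene and barcode with spot positions, and the submitters' processing notes name Space Ranger 1.0.0, Seurat 4.1.1 and mm10. The sections share the same 4992 barcodes by slide design. Spots off the tissue, under 800 genes or over 20% mitochondrial UMIs were dropped, which left 25136, and their counts summed per section, or per section and class, because spots are not replicates. Sums were tested with edgeR 4.0.16 (TMM, filterByExpr, robust quasi-likelihood, R 4.3.3) over all genes, with Benjamini-Hochberg adjustment, and with DESeq2 1.42.0 as an alternative. The common biological coefficient of variation between sections was 0.194. For zonation scores, spots were thinned to 2000 UMIs. The scripts were tested on simulated data. Sums and shares over the members were described without a test. All 10 members were named in each comparison, and the 5 genes most like them by the stated rule. The members and lists were chosen with earlier results of these data known. Sections A and B of different time points shared only a letter. Gene positions come from the GRCm38 annotation and promoters from RefSeq.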

Additional observations from a re-analysis of the deposited data

Results flagged for a closer look

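In 33 values over the 4 sections at 48 h, 1 section lay apart from the other 3 in 2, both for Cyp2c38 in section A. Its level was 2.77 CPM there and 0.832 to 1.07 CPM in sections B, C and D, a gap of 0.879 of the range, and for its share of the family the gap was 0.913 of the range. Chance alone gives about 1 such value in 20.

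The central-portal difference was smaller after injury than at 0 h in 11 tests of the change itself, by edgeR with adjusted p under 0.05, each given as a change of the log2 difference. At 24 h these were Cyp2c40 (-0.84), Cyp2c69 (-1.07) and Cyp2c70 (-0.66). At 36 h they were Cyp2c40 (-0.93), Cyp2c67 (-0.98), Cyp2c68 (-0.89) and Cyp2c70 (-0.69), and at 48 h Cyp2c40 (-1.52), Cyp2c67 (-0.68), Cyp2c68 (-0.66) and Cyp2c70 (-0.75). Cyp2c70 was the one member that was called in each fit with a section left out, at all 3 times.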

How the results depend on the processing

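Over the settings tried, other than leaving out a section, 80 values that answer a comparison stayed within 1.5 times of the count given or within 1 SD of the difference given. The other 16 were counts of members called. DESeq2 called 2 between 48 h and 36 h in place of 0. Between 48 h and 24 h (4 called), fitting the 2 time points alone gave 2, fitting the injured sections alone gave 2, a setting chosen after seeing the data, and adding the section letter as a replicate block to that fit gave 0. The block also gave 0 for the other pairs of injured time points. The letters are not known to pair sections, since deviations of same-lettered sections correlated at 0.287 for 24 h with 36 h, at -0.124 and -0.122 for 24 h with 48 h, and at 0.0736 and -0.241 for 36 h with 48 h. For central against portal spots at 36 h (3 called), total-count scaling gave 5, no filter on low counts 8 and DESeq2 5. For the change in gradient, textbook zonation genes gave 7, 7 and 9 at 24 h, 36 h and 48 h in place of 3, 4 and 4, no filter gave 9, 7 and 9, DESeq2 gave 5 at 24 h, and total-count scaling gave 2 at 36 h. For spots beside hepatocyte-low spots total-count scaling gave 1 in place of 4. Textbook zonation genes reversed Cyp2c68 (-0.14, adjusted p = 0.00451), Cyp2c40 (-0.26) and Cyp2c54 (-0.011) at 48 h. The cause was not tested. With a section left out, counts ran from 5 to 9 (24 h against 0 h), 0 to 1 (36 h against 24 h, and likewise for 48 h against 36 h), 2 to 9 and 1 to 5 (central against portal at 24 h and 36 h), and 2 to 4, 1 to 7 and 2 to 7 (change in gradient at 24 h, 36 h and 48 h). Total-count scaling moved the share of called genes that were higher from 45.1% to 68.1%, 53.1% to 74.2% and 47.7% to 74.0% in the comparisons of 36 h with 24 h, of 48 h with 36 h and of 48 h with 24 h, in that order. Low counts limit Cyp2c69 and Cyp2c40 at 48 h.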
